A study of Homo sapiens with 32 samples.

Results

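The promoters of the 8 genes that encode the subunits of TRiC, the cytosolic chaperonin also called CCT, were followed in an ATAC-seq experiment on the acute loss of the transcription factor ZNF143. The genes are TCP1 (the alpha subunit), CCT2, CCT3, CCT4, CCT5, CCT6A, CCT7 and CCT8. Their members are 15 windows of 401 bp, taken from a table of 212358 counted windows because their centres lay within 500 bp of an annotated transcript start of 1 of these genes. Within these genes the choice of windows used position alone and no measured value. The genes themselves were chosen with earlier results of these data known.

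TRiC is built of stacked rings in which every subunit has a fixed place, and it folds newly made proteins inside its cavity with the use of ATP. Actin and tubulin are its best known clients, together with WD-repeat proteins such as CDC20 and the G protein beta subunits. CCT2, CCT4 and CCT5 form the side of the ring that binds ATP most readily, CCT3, CCT6A and CCT8 the opposite side, and TCP1 and CCT7 stand between these sides. ZNF143, the human relative of the frog factor Staf, is a zinc finger protein that binds promoters through a long motif, described here by its core and by an upstream element that often accompanies it. Factors of this family were earlier reported to act on the promoter of the mouse Tcp1 gene.

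All libraries came from HEK_CloneZD29, 1 clone of the human embryonic kidney line HEK293T, whose ZNF143 carries an inducible degron tag, also in the control cells. The dTAGV-1 group received 50 nM of this compound, which recruits a ubiquitin ligase to the tag, for 30 min. ATAC-seq measures open chromatin by the insertions of the Tn5 transposase. The labels describe 32 libraries, of which the 16 of replicates 9 to 16 have counts, with 8 DMSO-treated controls and 8 dTAGV-1 libraries. The other 16, replicates 1 to 8 of each group, share a list of peak summits with no value per library. Their controls are titled DMSO, while the treatment field of those samples reads none. Nothing in the labels says that replicates were separate cultures, so p-values measure the spread between these libraries, which may be technical. The level of ZNF143 protein was not measured here, and open chromatin is no check of its loss.

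Library totals ran from 2275856 to 11418578 counts in control and from 3373219 to 13671039 in dTAGV-1. In 12 libraries the top decile of windows held 48.1% to 49.6% of the counts. Replicates 11 and 12 had a flatter signal, with shares of 45.9% and 31.8% in control and 41.8% and 39.0% in dTAGV-1. Control replicate 12 was the lowest control library in 12 of the 15 TRiC windows. Of 5 genes that mark the HEK293 line (PAX2, LHX1, NEFM, INA and VIM), all 5 had a counted window near a start. The window of LHX1 had too few counts to be tested. Of the markers of other cell types, PTPRC, CD3E, ALB and INS had none, COL1A1 had 3 and CDH5 had 2. In log2 CPM, defined below, the highest control level was 3.89 at COL1A1 and 0.86 at CDH5. At the tested HEK293 markers it ran from 3.01 (NEFM) to 3.92 (VIM), so the markers do not separate cleanly.

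Each window is named by its gene and by the distance of its centre from the start of the gene's canonical transcript, in bp, negative upstream. Exact matches to the ZNF143 letters, on both strands, were found in 2 of the 15 windows. CCT3 -450 held the upstream element (chr1:156338769-156338797, minus strand) and CCT7 -61 held the core (chr2:73234296-73234325, minus strand). The stretches shown have the match in capitals. In the search the fifth base of the core was free and the sixth could be A or C, and the seventh and the eighth base of the upstream element were free. The third stretch, from TCP1 -182, is the 108 bases between the outermost exons of TCP1 and MRPL18 (chr6:159789704-159789811, minus strand). It is shown because the TCP1 promoter had the lowest p of the 8 genes, and its capitals mark ETS letters (CGGAAG, here as CTTCCG) and a CCAAT box (here as ATTGG). All are hg38 reference sequence, 5′ to 3′.
CCT3 -450: ccggtaagACTACAACTCCCActtcaccc
CCT7 -61: cgcccagcaaCCCACAATGCctcgcgcaat
TCP1 -182: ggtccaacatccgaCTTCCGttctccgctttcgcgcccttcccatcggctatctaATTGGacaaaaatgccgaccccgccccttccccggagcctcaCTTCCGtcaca

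In control cells the TRiC promoters were mostly strongly open. Levels are given as log2 CPM, the log2 of CPM, counts scaled to a library of fixed size, which can be compared between windows of 1 width. The median over the 15 windows was 4.36, and 12 of the 15 lay above the median of all 38119 tested windows near a transcript start, 2.98. These 38119 are called promoter windows here. The 11 windows within 500 bp of a canonical start had a median of 4.39. The 4 farther ones had a median of 1.82 and include 3 near alternative upstream starts of CCT3.

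Ordered by its strongest window, taken over both groups, TCP1 -182 had the highest control level with 5.93 ± 0.34 (SD, n = 8 here and for the next values). CCT7 -926 followed with 5.90 ± 0.37 and CCT6A -151 with 5.86 ± 0.71. The next were CCT3 -47 with 5.62 ± 0.20 and CCT8 -130 with 5.17 ± 0.40. CCT2 -44 had 4.36 ± 0.39, CCT5 -48 had 4.08 ± 0.37 and CCT4 -158 had 3.62 ± 0.18. Neighbours among the first 4 differed by less than the SD of their difference within libraries, although CCT6A -151 lay above CCT3 -47 in 7 of 8 control libraries, all but the flat replicate 12. From CCT3 downwards each step was larger than that SD: CCT3 -47 lay above CCT8 -130, CCT8 -130 above CCT2 -44 and CCT2 -44 above CCT5 -48 in 8 of 8 control libraries, and CCT5 -48 above CCT4 -158 in 7 of 8. TCP1 -182 exceeded 98.4% of promoter windows in control level, and CCT4 -158 exceeded 66.9%.

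**Figure D1:**
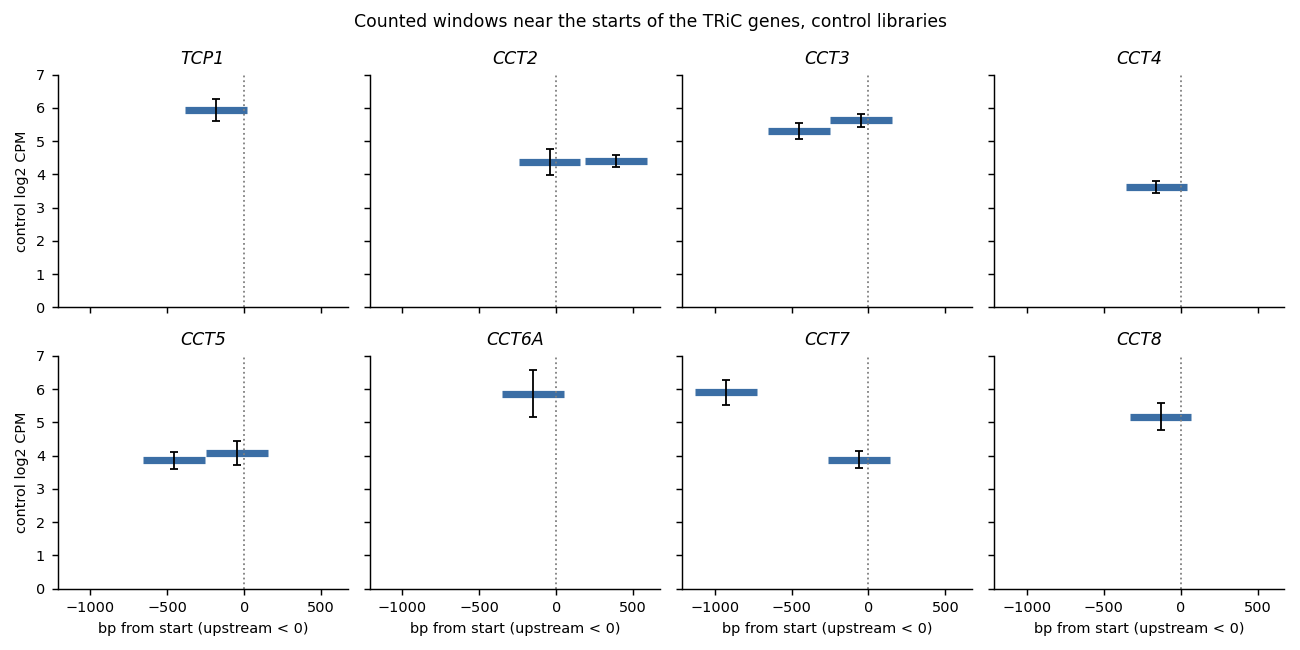
Position and control level of the 12 TRiC windows nearest the canonical starts. The x axis gives the distance in bp from the start (upstream negative), the y axis the mean control log2 CPM, blue bars span the 401 bp windows and black bars the SD over 8 libraries. Each of the 8 panels has a window near its start, and the strongest window of CCT7 lies farther upstream, at -926.

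The summit list of replicates 1 to 8 held the same promoters. It had 18 summits within 500 bp of a transcript start of the 8 genes, 13 of them within 500 bp of a canonical start, and every gene had at least 1. All 15 windows contained a summit, and 14 of the 18 summits fell in a window. The authors' score, on a −log10 scale, was highest at CCT7 -930 with 1450 and was 770 at TCP1 -200. In 7 of the 8 genes a summit stood in the top 10% of scores of the list; the highest summit of CCT4, at -209, had 128.

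Many TRiC promoters are shared with another gene. In 8 of the 15 windows a transcript start of a neighbour lay within 500 bp of the centre. The neighbours were MRPL18, a mitochondrial ribosomal protein, at TCP1; COMMD1 at CCT4; ATPSCKMT at CCT5; PSPH, an enzyme of serine synthesis, at CCT6A; PRADC1 at CCT7 -926; and TSACC, which encodes a co-chaperone, at CCT3. Counts in such a window belong to both genes, and bulk counts do not tell fewer cells with an open site from a less open site in each cell.

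The comparison of dTAGV-1 with control asks whether these promoters change soon after ZNF143 is targeted. None of the 15 windows, all of which passed the filter on low counts, was called by edgeR's quasi-likelihood test at a Benjamini-Hochberg adjusted p of 0.05. Over all 185040 tested windows 0.215% were called, and over promoter windows 0.567%. At an unadjusted p below 0.05 edgeR had 0 of the 15, against 2.85% of all tested windows, DESeq2 had 1 (2.92% of windows) and limma on quantile-normalized values had 2 (3.62%). Log2 fold changes (dTAGV-1 minus control) ran from -0.26 to 0.066 with standard errors of 0.13 to 0.23. Of these, 10 were negative and 5 positive, with a median of -0.058, beside 0.0077 over all tested windows, of which 48.2% were negative. The groups overlapped in every one of the 15 windows (0.0746% of all tested windows had groups that did not overlap). The 95% intervals of the 15 fold changes reached from -0.58 to 0.42 at their widest.

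**Figure D2:**
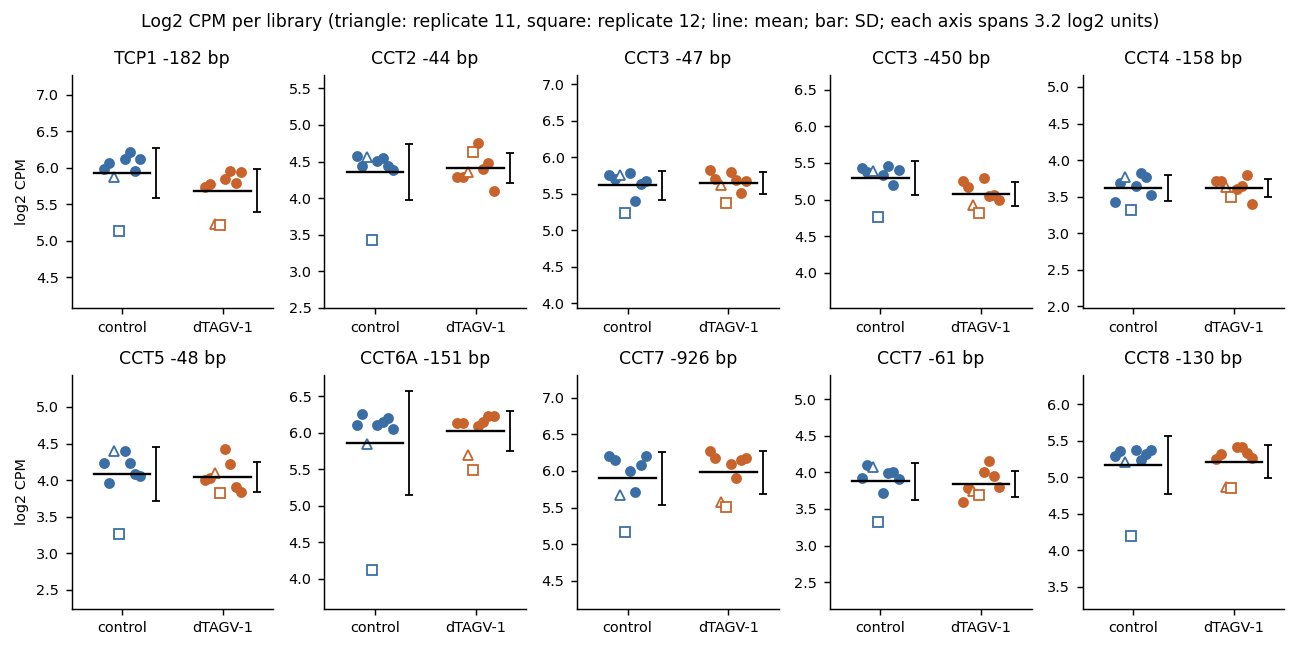
Log2 CPM per library at the strongest window of each gene, with CCT3 -450 and CCT7 -61 added. Filled points are libraries, triangles replicate 11 and squares replicate 12, lines are means and bars SD over 8 libraries. Control replicate 12 lies lowest of the controls in each panel, and the groups overlap in each.

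The windows are described by the place of their subunits in the ring, which serves only as an order of presentation. Between the sides stand TCP1, with the lowest fold change of the strongest windows, and CCT7, with the highest. TCP1 -182 (ENSG00000120438.12, chromosome 6, 159789584 to 159789984, hg38) is centred between TCP1 and MRPL18, outside the exons of both. In control the lowest library had 5.13, the median was 6.02 and the highest had 6.22 log2 CPM. In dTAGV-1 the corresponding levels were 5.22, 5.78 and 5.95. Most dTAGV-1 libraries lay below most controls, but the low control replicate 12 lay below all of them. The log2 fold change was -0.26 (SE 0.15, 95% interval -0.57 to 0.054), with an unadjusted p of 0.104 by edgeR, 0.0585 by DESeq2 and 0.000356 by limma on quantile-normalized values. The adjusted p was 1.0, 1.0 and 0.121 by these tools.

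CCT7 had 2 windows. CCT7 -926 (ENSG00000135624.17, chromosome 2, 73233182 to 73233582) is centred in intergenic sequence next to the start of PRADC1 and had control levels of 5.16, 6.04 and 6.21 (lowest, median, highest). In dTAGV-1 they were 5.51, 6.12 and 6.27, so that the groups covered nearly the same range. The fold change was 0.066 on the log2 scale (SE 0.16, edgeR unadjusted p = 0.677), the highest of the 15. CCT7 -61, centred in the UTR of CCT7 (chromosome 2, 73234047 to 73234447), had 3.32, 3.96 and 4.10 in control and 3.59, 3.80 and 4.15 in dTAGV-1. Its log2 fold change was -0.058 (95% interval -0.32 to 0.21). Among the member windows only CCT7 -61 held the exact ZNF143 core.

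On the side of CCT2, CCT4 and CCT5, fold changes were all within 0.12 of 0 on the log2 scale. CCT2 -44 (ENSG00000166226.13, chromosome 12, 69585215 to 69585615, intergenic) had 3.42, 4.48 and 4.58 in control and 4.09, 4.38 and 4.76 in dTAGV-1. Its log2 fold change was 0.00044 (95% interval -0.29 to 0.29), and that of CCT2 +389 was -0.066. The dTAGV-1 libraries lay on either side of the control median. CCT4 -158 (ENSG00000115484.15, chromosome 2, 61888614 to 61889014), centred in a noncoding exon of COMMD1, had 3.32, 3.67 and 3.82 in control. In dTAGV-1 it had 3.40, 3.64 and 3.79, a log2 fold change of -0.0083 (95% interval -0.26 to 0.25). CCT4 was the least open of the strongest windows and also had the narrowest interval of them. CCT5 -48 (ENSG00000150753.12, chromosome 5, 10250032 to 10250432), in the UTR of CCT5, had 3.26, 4.16 and 4.40 in control and 3.83, 4.02 and 4.42 in dTAGV-1. Its log2 fold change was -0.078 (95% interval -0.36 to 0.20). CCT5 -457, in an intron of ATPSCKMT, had -0.12 (SE 0.13).

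On the side of CCT3, CCT6A and CCT8, the strongest windows had fold changes near 0 too. CCT3 -47 (ENSG00000163468.15, chromosome 1, 156338139 to 156338539), in introns of CCT3 and TSACC, had 5.23, 5.69 and 5.78 in control and 5.37, 5.68 and 5.83 in dTAGV-1, a log2 fold change of 0.024 (95% interval -0.25 to 0.30). CCT6A -151 (ENSG00000146731.11, chromosome 7, 56051414 to 56051814), intergenic beside PSPH, had 4.12, 6.11 and 6.26 in control and 5.49, 6.13 and 6.23 in dTAGV-1. Its log2 fold change of 0.063 had the widest interval of the strongest windows, -0.29 to 0.42, and its control minimum was replicate 12. CCT8 -130 (ENSG00000156261.13, chromosome 21, 29073578 to 29073978), in the UTR of CCT8, had 4.19, 5.30 and 5.37 in control and 4.85, 5.29 and 5.41 in dTAGV-1, a log2 fold change of 0.011 (95% interval -0.29 to 0.31). The medians of these 3 windows differed between the groups by less than the SD within either group.

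By edgeR and DESeq2 the window with the smallest unadjusted p was not a strongest window, while by limma it was TCP1 -182. CCT3 -450 (chromosome 1, 156338542 to 156338942), in an intron of CCT3 and the UTR of TSACC, had 4.76, 5.38 and 5.46 in control. In dTAGV-1 it had 4.82, 5.06 and 5.30. Most controls lay above all dTAGV-1 libraries, with replicates 12 and 15 the exceptions. The log2 fold change was -0.23 (SE 0.14, 95% interval -0.51 to 0.044), with an unadjusted p of 0.0971 by edgeR, 0.0136 by DESeq2 and 0.00658 by limma. Its adjusted p was 1.0, 1.0 and 0.984 by these tools.

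The 3 windows at alternative upstream starts of CCT3, on chromosome 1 between 156367333 and 156368570, had low levels. Their control means were 1.94 ± 0.31 at CCT3 -29241, 1.70 ± 0.36 at CCT3 -29625 and 1.66 ± 0.62 at CCT3 -30078 (SD, n = 8). The log2 fold changes were -0.14, -0.049 and -0.11 with standard errors of 0.19, 0.23 and 0.23. The first 2 windows overlap and share counts. All 3 also differ from the other 12 windows in sequence. Their ratio of observed to expected CpG was 0.14, 0.21 and 0.14, while the other 12 had 0.65 to 1.02.

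**Figure D3:**
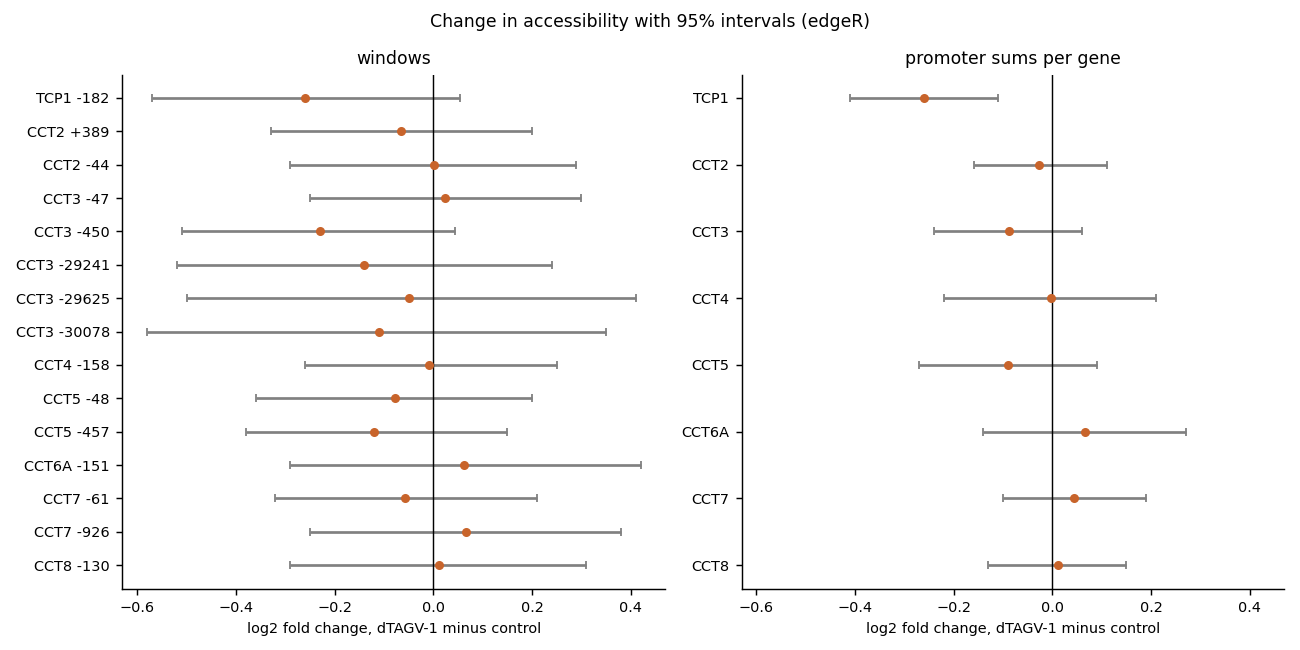
Log2 fold changes (dTAGV-1 minus control) of the 15 windows and of the 8 promoter sums, with 95% intervals from edgeR. All 15 window intervals include 0, and of the sums the interval of TCP1, -0.41 to -0.11, does not.

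Counts were also summed per gene over its windows and tested among 22129 genes, with the libraries scaled over these promoter sums. Of all genes 1.85% were called by edgeR at an adjusted p of 0.05, and none of the 8 TRiC genes was. At an unadjusted p below 0.05 by edgeR there was 1 TRiC gene, TCP1, beside 4.84% of all genes. DESeq2 and limma each had the same number. Their shares over all genes were not counted, so the number cannot be judged for these tools. Of the 8 fold changes 5 were negative, with a median of -0.015, beside 0.014 over all genes, of which 43.3% were negative.

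TCP1 has 1 window, so its sum holds the counts of TCP1 -182 on another scale. On it the controls had 6.38, 6.55 and 6.76 log2 CPM (lowest, median, highest; mean 6.56 ± 0.12, n = 8). The dTAGV-1 libraries had 5.98, 6.32 and 6.50 (mean 6.30 ± 0.17, n = 8). In 6 of 8 libraries dTAGV-1 was lower than any control, and 5 of the 8 controls exceeded every dTAGV-1 library. The control SD was 0.34 on the scale of all windows and 0.12 here. The log2 fold change was -0.26 (SE 0.073, 95% interval -0.41 to -0.11), which is 83.6% of the control level (75.5% to 92.7%). Its unadjusted p was 0.00142, at or above the p of 1.99% of the genes, and its adjusted p by edgeR's quasi-likelihood test was 0.0715, short of the threshold.

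The side of the threshold on which TCP1 stood depended on the tool, the libraries and the use of a replicate block. The fit with that block is given with the other settings near the end. The adjusted p of the TCP1 sum was 0.0134 with DESeq2 (which called 2.47% of genes lower) and 0.0446 with limma on quantile-normalized values (1.6% lower). It was 0.0204 without replicates 11 and 12 of both groups (2.65% lower), 0.0295 without control replicate 12 (2.13%), 0.0479 without dTAGV-1 replicate 14 (1.65%) and 0.0431 without dTAGV-1 replicate 16 (1.65%). Leaving out each other library gave 0.0764 to 0.196. The log2 fold change stayed between -0.29 and -0.22 in all of these.

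**Figure D4:**
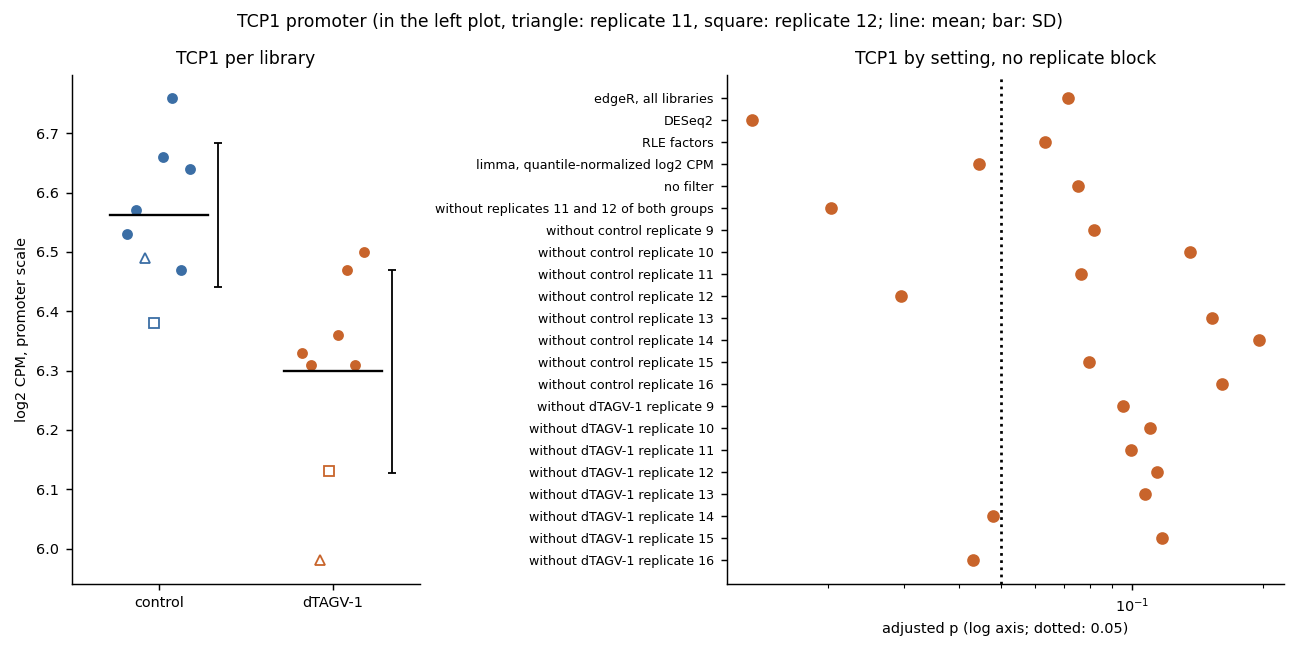
Left, log2 CPM of the TCP1 promoter per library on the scale of promoter sums (triangle, replicate 11; square, replicate 12; line, mean; bar, SD over 8 libraries). Right, the adjusted p of its difference (log axis) under the settings without a replicate block, from 0.0134 to 0.196, with 0.05 dotted.

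Within libraries, TCP1 -182 was also set against its neighbour at -778 (chromosome 6, 159790180 to 159790580), on the far side of the outermost MRPL18 start. A transcript start of MRPL18 lay within 500 bp of the centre of this neighbour too. That window had control and dTAGV-1 means of 5.84 ± 0.50 and 5.90 ± 0.36 (SD, n = 8) and a log2 fold change of 0.037 (95% interval -0.30 to 0.37). The level of TCP1 -182 minus that of the neighbour was 0.10 ± 0.19 in control (-0.12 to 0.45) and -0.22 ± 0.12 in dTAGV-1 (-0.35 to -0.04), with 5 of 8 below the control minimum. At CCT3, the level at -450 minus that at -47 was -0.32 ± 0.17 in control (-0.47 to 0.07) and -0.57 ± 0.087 in dTAGV-1 (-0.68 to -0.44), with 7 of 8 below the control minimum. At CCT7, the level at -61 minus that at -926 was -2.02 ± 0.27 in control and -2.14 ± 0.33 in dTAGV-1, with 3 of 8 below the control minimum. These differences were chosen after the values were seen and were not tested.

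The other 7 promoter sums had 95% intervals between -0.27 and 0.27 on the log2 scale. CCT2 had 98.1% of the control level in dTAGV-1 (89.3% to 108%) and CCT4 99.8% (86.1% to 116%). CCT5 had 94.0% (82.9% to 107%) and CCT3 94.1% (84.9% to 104%). CCT6A had 105% (90.6% to 121%), CCT7 103% (93.0% to 114%) and CCT8 101% (91.4% to 111%). The CCT7 sum came mostly from CCT7 -926, next to the start of PRADC1. That window held 8694 counts over all libraries, and CCT7 -61, with a log2 fold change of -0.058, held 1960. Whether the fold change of TCP1 differed from those of the other subunits was not tested.

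The 2 exact ZNF143 matches seen among the TRiC windows can be read against all promoter windows. The upstream element in CCT3 -450, ACTACAACTCCCA, lay 41 bp from the window centre (chromosome 1, 156338777 to 156338789) and occurred as a motif in 525 of 38119 promoter windows, 1.38%. Of those 525, 112 were called lower by edgeR, 21.3%, beside 0.561% of all promoter windows. Their median log2 fold change was -0.31, and 91.0% were negative. CCT3 -450, with -0.23, lay above that median.

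The core in CCT7 -61, CCCACAATGC, lay across the start of CCT7 itself (chromosome 2, 73234306 to 73234315). The core occurred in 520 promoter windows, 1.36%, and in 1.20% of the 300-base RefSeq promoters (GRCh38.p14). Of the 520 windows 39 were called lower, 7.50%, and their median log2 fold change was -0.078, with 63.3% negative. CCT7 -61 had -0.058, and between -0.11 (without control replicate 12 or dTAGV-1 replicate 14) and -0.023 with 1 library left out, a range that includes that median. TCP1 -182 held neither sequence: its best match to the core had 2 mismatches, and 88.6% of promoter windows had a match at least as good. A match with at most 1 mismatch was present in 6 of the 15 windows and in 19.0% of promoter windows.

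**Figure D5:**
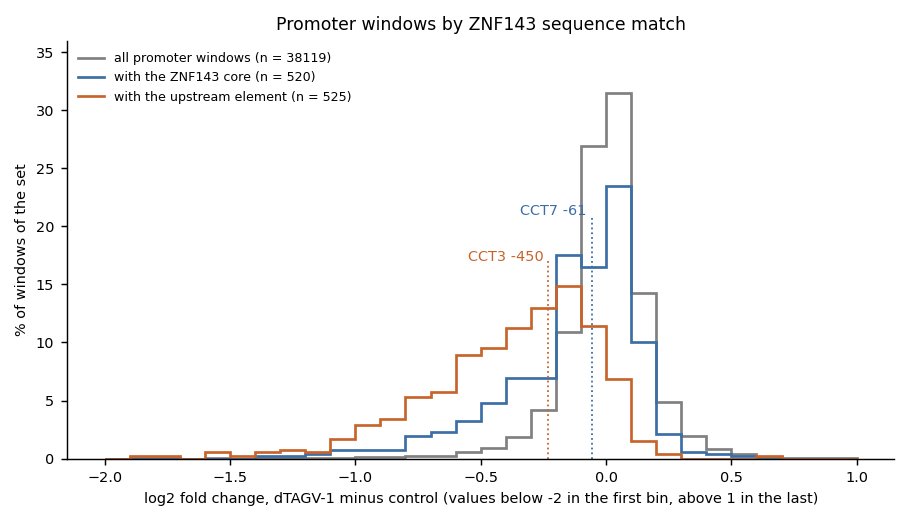
Share of promoter windows by log2 fold change (dTAGV-1 minus control, bins of 0.1) for all windows, those with the ZNF143 core and those with the upstream element. Dotted lines mark CCT3 -450 at -0.23 and CCT7 -61 at -0.058, which were not called.

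Other promoter letters were searched in the same way. The CCAAT box, bound by NFY, was present in 9 of the 15 windows and in 33.1% of promoter windows, and CGGAAG, the ETS letters, in 6 and in 23.5%. The 9 windows with a CCAAT box include the weak upstream windows CCT3 -29241, CCT3 -29625 and CCT3 -30078. CCT7 -926 held 3 CCAAT boxes and CCT6A -151 also held 3. TCP1 -182 held 2 ETS matches and 1 CCAAT box, all within the stretch printed above. TATAAA occurred in 1 window, CCT2 +389, and in 8.46% of promoter windows. The heat shock element occurred in 0 of the 15 and in 0.362% of promoter windows. RefSeq promoter sequences matched 7 of the 8 genes by symbol.

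Genes that work with TRiC or depend on it were counted from a list of 40, of which 39 had a window. Of their 97 tested windows (102 in all) 0 were called, and 0 had an unadjusted p below 0.05 by edgeR, beside 1 by DESeq2 and 1 by limma. The median log2 fold change was 0.02, and 42 of 97 were negative. Prefoldin, which hands unfolded actin and tubulin to TRiC, had 12 tested windows, 4 of them negative, with a median of 0.031. The phosducin-like co-factors had 6 with a median of -0.015, and the tubulin cofactors, which take tubulin over after folding, had 18 with a median of 0.10. Among 29 tested windows of TRiC clients 16 were negative, with a median of -0.022. The 13 windows of factors reported at TRiC promoters, among them those of ZNF143 itself and of HSF1, had a median of 0.018.

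The partner windows with the smallest p did not pass the test either. GNB1, a G protein beta subunit folded by TRiC, had 1 window with 2.20 ± 0.49 in control and 2.62 ± 0.35 in dTAGV-1 (n = 8), a log2 fold change of 0.32 with an edgeR unadjusted p of 0.0577. Another GNB1 window had -0.28 (unadjusted p by edgeR = 0.20). PFDN5, a prefoldin subunit, had 1 window with 0.22 (unadjusted p by edgeR = 0.0904). A weak window of TBCE, a tubulin cofactor, had -0.43 (unadjusted p by edgeR = 0.181), with a control level of 0.96 ± 0.58 (n = 8). The strongest TBCE window, with a control level of 6.27, had 0.058. Over promoter sums 0 of 37 tested partners were called, beside 1.85% of all genes. An unadjusted p below 0.05 by edgeR was found for 2 partners, beside 4.84% of all genes. These were PFDN5, at 0.21 on the log2 scale and an adjusted p of 0.501 by edgeR, and TBCD, at 0.24 and 0.70.

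The promoter windows whose levels were most like the mean of the 8 strongest TRiC windows over the 16 libraries were those of MARS2 (Pearson r = 0.988), PRRT4 (r = 0.985) and the shared start of UBA6 and UBA6-DT (r = 0.985). They were taken from 38103 candidates with a median r of 0.543. The points share library depth and the flat signal of replicates 11 and 12, so r is a description only.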

How the data were processed

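Members and gene lists were chosen with earlier results of these data known. Reads had been processed by the authors with cutadapt 1.8.1, Bowtie2 2.4.4 and SAMtools 1.9 against hg38, per the submitters' processing notes. The peak caller, the counting tool, read filters and any Tn5 shift are not given in the sources used here. The deposited table holds whole-number counts per window, not normalized, beside a −log10 q of each window from the authors, per the file headers. The deposited summit list gives a −log10 score from the authors; whether it is p or q is not given in the sources used here. No per-sample column was left unused (0).

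Window counts were filtered with filterByExpr, scaled by TMM and tested with edgeR 4.0.16 in R 4.3.3 (quasi-likelihood, Benjamini-Hochberg, threshold 0.05, no covariate). Log2 CPM used a prior count of 2. Promoter sums per gene were refitted with their own scaling. Alternatives used DESeq2 1.42.0, limma 3.58.1, RLE factors, no filter, a replicate block, left-out libraries, and distances of 250 and 1000 bp or starts of protein-coding transcripts. Transcript starts came from GENCODE release 44. The fits were tested on simulated data, with changes placed at random among the windows or genes tested. The window fit called 3.7% of log2 changes of -0.5 and 36.0% of those of -1.0. The fit of sums called 72.1% and 90.9%. Changes smaller than 0.5 were not simulated, so 0 called windows does not exclude small changes. The 56 pairs of libraries of a group all differed by more than sampling noise (chi-square per degree of freedom 1.64 to 5.0). At 8 libraries a group, the SE of 0.13 to 0.23 sets the precision of a window.

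Named in the text are the strongest window of each gene over both groups, called windows or else those with the smallest p in each direction, neighbours with a start within 500 bp, the 2 partner windows with the smallest p in each direction and the 3 most alike promoter windows. The other windows of CCT2, CCT3, CCT5 and CCT7 complete the account of members. The neighbour of TCP1 at -778 and the differences within libraries were chosen after their values were seen.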

Additional observations from a re-analysis of the deposited data

Results flagged for a closer look

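The 15 windows and 8 promoter sums in each group gave 46 groups of libraries to examine. In 10 of the 46, 1 library stood far from the other 7 relative to the range of its group, by Dixon's criterion. Chance gives this in about 1 of 20 unrelated groups. The 46 reuse the same libraries, and the sum of a gene with 1 window holds the counts of that window. The number 10 therefore cannot be judged against that rate. Control replicate 12, the shallowest library with the flattest signal, was the low one in 8 of the 10. It had 5.13 log2 CPM at TCP1 -182 (the others 5.87 to 6.22), 4.76 at CCT3 -450 (5.20 to 5.46), 3.42 at CCT2 -44 (4.38 to 4.58), 3.26 at CCT5 -48 (3.96 to 4.40), 4.12 at CCT6A -151 (5.85 to 6.26) and 4.19 at CCT8 -130 (5.21 to 5.37). On the scale of promoter sums it had 5.37 at CCT6A (6.46 to 6.77) and 5.43 at CCT8 (5.77 to 5.91). dTAGV-1 replicate 12, also flat, was the high library at the weak upstream windows of CCT3, with 2.99 at CCT3 -29625 (0.77 to 1.80) and 2.59 at CCT3 -30078 (1.24 to 1.71). The part of the flat signal in these values was not tested.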

How the results depend on the processing

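The count of called TRiC windows was 0 in all 25 alternatives and that of partner windows 0 in all 22. Between 0 and 2 TRiC windows had an unadjusted p below 0.05 when 1 library was left out. The median control level was 4.36 with and without TMM factors. The number of called TRiC promoter sums was 1 (TCP1) with DESeq2, with limma and without replicates 11 and 12 of both groups, and 0 to 1 when 1 library was left out; it was 0 with RLE factors and with no filter. The cause was not tested. Without replicates 11 and 12 of both groups, TCP1 -182 had an adjusted p of 0.0729 by edgeR. Fold changes near 0 changed sign under some settings, CCT2 -44 among them, so the split of 10 negative and 5 positive windows is not fixed. CCT2 -44 had -0.0037 with DESeq2 and -0.086 without replicates 11 and 12, and the CCT4 sum had 0.0041 without them. With 1 library left out, the log2 fold change ran from -0.021 to 0.058 at CCT3 -47, -0.26 to 0.064 at CCT3 -29625, -0.08 to 0.043 at CCT2 -44, -0.038 to 0.021 at CCT4 -158, -0.011 to 0.12 at CCT7 -926, -0.075 to 0.054 at CCT8 -130 and -0.066 to 0.12 at CCT6A -151. For sums it ran from -0.049 to 0.025 at CCT4, -0.0021 to 0.10 at CCT6A and -0.013 to 0.032 at CCT8. Other uncalled values kept their sign but moved by over 1.5 times, from -0.22 to -0.06 at CCT3 -29241, -0.25 to -0.015 at CCT3 -30078, -0.10 to -0.027 at CCT2 +389, -0.14 to -0.032 at CCT5 -48, -0.16 to -0.062 at CCT5 -457 and -0.11 to -0.023 at CCT7 -61, and for sums -0.06 to -0.017 at CCT2, -0.12 to -0.057 at CCT3, -0.13 to -0.049 at CCT5 and 0.0069 to 0.066 at CCT7.

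The labels do not say whether replicate numbers pair the libraries. Correlations of same-numbered libraries ran from 0.0276 to 0.336, with 5 of 8 over 0.1. All 8 were above the median of 0.0247 for libraries of different number, and 10 of 16 libraries correlated best with their own number. With the replicate block 0 TRiC windows and 1 TRiC promoter sum (TCP1, edgeR adjusted p 0.000596) were called, 0.407% of windows and 3.14% of genes were called in all, and CCT2 -44 had -0.022.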

Other observations

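The windows of PFDN6 and TUBB, both listed TRiC partners, held no counts. PFDN6, a prefoldin subunit, had 3 windows and TUBB, a beta-tubulin that TRiC folds, had 2, and all 5 were at 0 in all 16 libraries. The authors' −log10 q at these windows reached 116 at PFDN6 and 193 at TUBB. Both genes lie on chromosome 6 between positions 28000000 and 34000000, where 273 of 478 windows (57.1%) were at 0 in every library. Among all windows 2816 (1.33%) were, and their median −log10 q was 36.3, beside 23.4 over all windows. Neither gene entered a test.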
